A study of Homo sapiens with 28 samples.

Results

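The luminal and basal prostate lineage genes are 10 genes: the transcription factors FOXA1, HOXB13, GATA2 and TP63, the keratins KRT8, KRT18, KRT19, KRT7 and KRT5, and the surface receptor CD44. They were chosen by symbol, and all 10 were found among the 19662 gene symbols of 2 RNA-Seq tables with 16 libraries in total. The study asked how the transcription factor ONECUT2 and hypoxia act in prostate cancer cells. The LNCaP table holds 8 libraries of LNCaP, a prostate adenocarcinoma cell line, with an empty vector or overexpressing Flag-tagged ONECUT2 (Flag-OC2), each in normoxia or in a hypoxia chamber at 0.2% oxygen. The PC3 table holds 8 libraries of PC3, a prostate cancer line that the study uses as a neuroendocrine-like model, transfected with a control siRNA (siCtrl) or with an siRNA that targets ONECUT2 (siOC2), again in normoxia or at 0.2% oxygen. There are 2 libraries in each of the 8 groups, named replicate 1 and replicate 2. In the siOC2 groups the number is also that of the siRNA, so the spread within these groups includes the difference between siRNA1 and siRNA2. No label says that the 2 libraries of a group came from separate cultures, and p-values then measure only the spread between these libraries.

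In the normal prostate gland, luminal cells line the lumen and secrete the prostatic fluid, and basal cells sit beneath them on the basement membrane. Luminal cells carry the simple keratins KRT8 and KRT18 and the factors FOXA1, HOXB13 and GATA2, which act at prostate enhancers. Basal cells carry KRT5, the transcription factor TP63 and the hyaluronan receptor CD44. Keratin filaments form from pairs of a type II keratin (KRT8, KRT7, KRT5) and a type I keratin (KRT18, KRT19), and KRT8 with KRT18 is the usual pair of simple epithelia. ONECUT2 is a homeodomain factor with a CUT domain, and hypoxia stabilises HIF1α, which binds short hypoxia response elements.

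The values were RPKM, read density scaled by transcript length and by library size, as the authors computed them for each table. Relative depth, read from the steps between low values, ran from 0.548 to 1 over the LNCaP libraries and from 0.348 to 1.15 over the PC3 libraries. In PC3, 3 libraries had a relative depth under 0.5, siCtrl normoxia replicate 1 (0.418), siCtrl hypoxia replicate 2 (0.382) and siOC2 hypoxia replicate 1 (0.348). The targeted gene ONECUT2 was at 1.77 and 1.16 RPKM with siCtrl in normoxia, 0.276 and 0.204 with siOC2 in normoxia, 0.648 and 0.55 with siCtrl in hypoxia, and 0.125 and 0.214 with siOC2 in hypoxia. In hypoxia its log2 change with siOC2 was -1.39, with an unadjusted P of 0.0639 in limma. In LNCaP with empty vector ONECUT2 was at 2.89 and 7.86 RPKM in normoxia and 11.5 and 3.09 in hypoxia. It had no value in the 4 Flag-OC2 libraries of LNCaP, so overexpression could not be checked there. The identity of the lines was checked with a further luminal gene. KLK3, the gene of prostate-specific antigen, was at 1842 to 3997 RPKM in LNCaP and listed at 0 in all 8 PC3 libraries. Of the neuroendocrine markers, CHGA, CHGB, SYP and INSM1 stayed under 0.6 RPKM in all PC3 libraries, while ENO2 was at 19.7 to 113 RPKM and NCAM1 at 1.30 to 15.2 RPKM. The leukocyte gene PTPRC and the endothelial gene CDH5 were under 0.2 RPKM in both lines. Other such markers were not: the endothelial gene VWF was at 0.486 to 2.86 RPKM in LNCaP and at most 0.0652 in PC3. The immune marker CD68 was at 21.1 to 36.5 RPKM in LNCaP and 25.9 to 57.2 in PC3.

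The genes lie on 5 chromosomes of GRCh37. FOXA1 is at chr14:38058757-38065264, GATA2 at chr3:128198270-128212044, TP63 at chr3:189349178-189615065 and CD44 at chr11:35160429-35253949. HOXB13 (chr17:46802125-46806112) and the type I gene KRT19 (chr17:39679869-39684560) share chromosome 17. The other keratins lie together on chromosome 12, with KRT7 at chr12:52626304-52645970, KRT5 at chr12:52908359-52914314, KRT8 at chr12:53290971-53343738 on the minus strand and KRT18 at chr12:53342655-53346690 on the plus strand. The annotated bodies of KRT8 and KRT18 overlap, and KRT8, KRT18 and KRT19 have processed pseudogenes elsewhere in the genome, so their levels carry the uncertainty of how the authors' counting assigned such reads.

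RefSeq promoter windows of 300 bases (250 before to 50 after a start site, build GRCh38.p14) matched 6 of the 10 genes by symbol. They were searched on both strands for the letters ACGTG and GCGTG, the core of hypoxia response elements, and for ATCGAT and ATCAAT, forms of the sequence bound by ONECUT factors. The windows of GATA2 and FOXA1 are shown because these factors carried the largest changes among the lineage factors, GATA2 with hypoxia in LNCaP and FOXA1 with siOC2 in PC3. Capitals mark a motif on either strand. GATA2 has 2 start sites in RefSeq, an upstream one on the minus strand at chr3:128493152-128493451 and a downstream one at chr3:128488481-128488780, and the FOXA1 window is at chr14:37595200-37595499, also on the minus strand.
GATA2 upstream start: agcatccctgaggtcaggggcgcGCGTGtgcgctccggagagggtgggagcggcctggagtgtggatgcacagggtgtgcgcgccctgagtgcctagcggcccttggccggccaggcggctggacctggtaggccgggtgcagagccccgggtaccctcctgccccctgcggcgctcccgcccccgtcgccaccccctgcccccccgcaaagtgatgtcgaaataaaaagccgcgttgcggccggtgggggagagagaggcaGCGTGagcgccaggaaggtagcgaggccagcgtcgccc
GATA2 downstream start: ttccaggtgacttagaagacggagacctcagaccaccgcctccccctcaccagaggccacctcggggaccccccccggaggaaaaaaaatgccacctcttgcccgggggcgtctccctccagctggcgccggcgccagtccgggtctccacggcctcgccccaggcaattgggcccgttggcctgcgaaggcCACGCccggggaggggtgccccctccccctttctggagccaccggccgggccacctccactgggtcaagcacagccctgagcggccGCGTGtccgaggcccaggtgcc
FOXA1: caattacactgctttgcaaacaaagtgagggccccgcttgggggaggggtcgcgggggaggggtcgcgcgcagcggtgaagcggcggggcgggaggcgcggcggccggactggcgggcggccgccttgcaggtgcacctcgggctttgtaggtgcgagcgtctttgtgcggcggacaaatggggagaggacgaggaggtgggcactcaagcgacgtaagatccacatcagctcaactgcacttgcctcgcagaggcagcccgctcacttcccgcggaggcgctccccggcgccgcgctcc
Each GATA2 window held GCGTG at 2 places, which 36.5% of all 35116 windows hold at least once, and neither held any of the other 3 motifs. The FOXA1 window held none of the 4 motifs. CD44 had 1 ACGTG (in 21.4% of all windows) and TP63 had 1 ATCAAT (in 6.26%), while the windows of KRT5 and KRT8 had none of the motifs, ATCGAT included (in 0.763%). The GATA2 and FOXA1 windows were rich in G and C, at 72.3% and 71.3% for GATA2 and 69.3% for FOXA1. A match to these letters is a description of the sequence only.

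The 2 lines differed in most of the 10 genes. FOXA1, HOXB13, GATA2, KRT8 and KRT18 were higher in every LNCaP library than in any PC3 library, KRT19, KRT7 and CD44 were higher in every PC3 library than in any LNCaP library, and KRT5 and TP63 were near 0 in both. The counts of 5 and 3 of the 10 genes stand beside 33.2% of all 19661 genes with values in both tables that were higher in every LNCaP library and 10.4% that were higher in every PC3 library. After scaling each library to its 75% quantile these shares were 19.5% for both lines, and the counts for the 10 genes stayed at 5 and 3. The tables were normalised separately, so no test was made between them, and line, table and experiment cannot be told apart.

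The lineage factors were at 29.4 RPKM or more in all LNCaP libraries. FOXA1, a pioneer factor that opens chromatin, was at 200.3 and 199 RPKM in LNCaP with empty vector in normoxia and at 23.8 and 28.7 in PC3 with siCtrl in normoxia, a ratio of means of 7.60. HOXB13, the homeobox factor of the prostate, was at 37.2 and 43.1 RPKM in LNCaP and 2.71 and 2.66 in PC3, a ratio of 15.0. GATA2, a zinc finger factor, was at 57.5 and 55.9 RPKM against 2.91 and 3.12, a ratio of 18.8. FOXA1 was thus the most abundant of the 3 factors in both lines, and the factor that PC3 kept at the highest level. The 75% quantile of the expressed genes was 1.75 times higher in LNCaP, and after scaling each table to it the ratios were 4.14 for FOXA1, 8.11 for HOXB13 and 10.2 for GATA2.

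The keratins split by pair. In LNCaP (empty vector, normoxia) KRT8 was at 207 and 238 RPKM and KRT18 at 129 and 145, while KRT19 was at 4.93 and 5.08 and KRT7 at 0.387 and 0.208. Of the listed keratins in PC3 (siCtrl, normoxia), KRT7 led with 227 and 251.2 RPKM. It was followed by KRT19 with 125 and 135, KRT8 with 70.0 and 69.5 and KRT18 with 18.2 and 17.7. KRT8 was therefore 3.19 times and KRT18 7.63 times higher in LNCaP, and KRT19 was 25.9 times higher in PC3. For KRT7 and CD44 the ratios of PC3 to LNCaP were 804 and 1299, on LNCaP values under 1 RPKM. CD44 was the highest of the 10 genes in PC3, at 422 and 555 RPKM, and was at 0.426 and 0.327 RPKM in LNCaP.

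KRT5 was at 0.201 to 0.527 RPKM over the LNCaP libraries and 0 to 0.426 over the PC3 libraries. TP63 was listed at 0 in 7 of 8 LNCaP libraries and 5 of 8 PC3 libraries, with a highest value of 0.134 RPKM. The basal identity genes KRT5 and TP63 were thus near 0 in PC3, in the same libraries in which CD44 was at 171 to 661 RPKM. In the order of the levels in normoxia, neighbours did not overlap between their 2 libraries in PC3, and in LNCaP only CD44, KRT5 and KRT7, all under 0.5 RPKM, overlapped their neighbours.

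**Figure D1:**
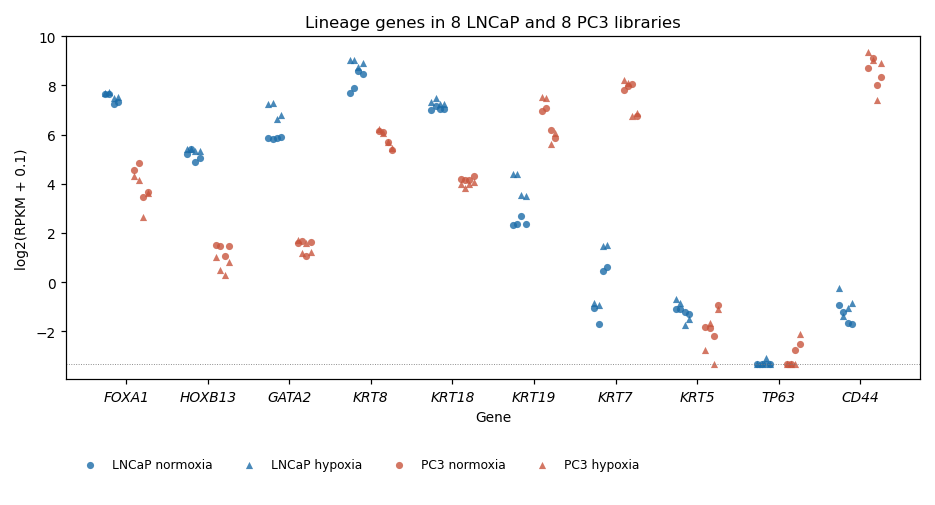
Level of each lineage gene as log2(RPKM + 0.1) in the 8 LNCaP (blue) and 8 PC3 (red) libraries, circles for normoxia and triangles for hypoxia, with the dotted line at 0 RPKM. FOXA1, HOXB13, GATA2, KRT8 and KRT18 sit higher in LNCaP, KRT19, KRT7 and CD44 higher in PC3, and KRT5 and TP63 are low in both.

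Among the type II keratins of the list (KRT8, KRT7 and KRT5), KRT8 took 99.3% to 99.8% of the summed RPKM in the LNCaP libraries and 16.3% to 32.7% in the PC3 libraries, where KRT7 took 67.3% to 83.7%. Among the type I keratins of the list, KRT18 took 88.4% to 96.6% in LNCaP and 7.40% to 25.5% in PC3, where KRT19 took 74.5% to 92.6%. For these listed keratins, type II over type I was 1.55 to 2.92 in LNCaP and 1.77 to 3.45 in PC3. The sums leave out type II keratins outside the list. KRT81, KRT86 and KRT80 had means of 508, 40.7 and 38.0 RPKM in PC3 with siCtrl in normoxia. In LNCaP with empty vector in normoxia their means were 0.0234, 0.00483 and 0.332 RPKM. The ratios are therefore not those of all type II to all type I keratins. The shares did not overlap between the lines under any of the treatments.

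**Figure D2:**
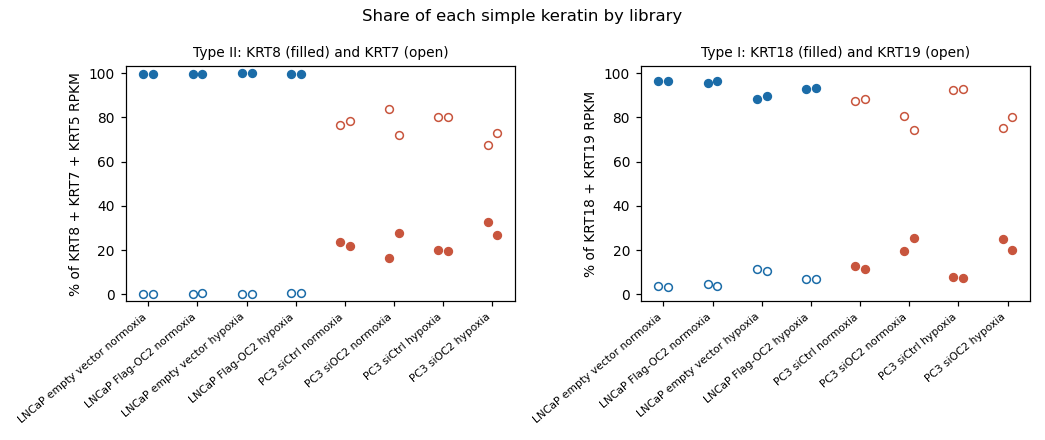
Share of the type II keratins (left, % of KRT8 + KRT7 + KRT5 RPKM) and of the type I keratins (right, % of KRT18 + KRT19 RPKM) in each library of the 8 groups, LNCaP in blue and PC3 in red. KRT8 and KRT18 (filled) hold at least 88.4% in every LNCaP library, and KRT7 and KRT19 (open) at least 67.3% in every PC3 library.

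Differences within a line were tested with limma on log2(RPKM + 0.1) over all genes that reached 1 RPKM in 2 or more of its 8 libraries. A gene was called, and is said to rise or fall, if it differed by more than 2-fold with an unadjusted P under 0.05. The adjusted p beside it is the Benjamini-Hochberg value over all genes tested. Of the 10 genes, 7 were tested in LNCaP (not KRT5, TP63 and CD44) and 8 in PC3 (not KRT5 and TP63). KRT7 passed the minimum in LNCaP through its 4 Flag-OC2 libraries alone, so that it had to differ there.

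Hypoxia raised GATA2, KRT8 and KRT19 in LNCaP cells with empty vector. These 3 of the 7 genes tested were called higher and none lower, beside 5.6% of all 12283 genes called higher and 2.34% called lower. The median log2 change of the 7 genes was 0.46, beside 0.02 over all genes. That median is the value of KRT7, which was at 0.208 to 0.448 RPKM in these libraries and was not called. KRT7 entered the test through its Flag-OC2 libraries alone, so the median is a description only. The contrasts with Flag-OC2 further on share libraries with this one.

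GATA2 went from 57.5 and 55.9 RPKM in normoxia to 152 and 154 in hypoxia. The groups were far apart and each replicate pair lay within 2 RPKM of its mean, and the fold change was 2.69 (log2 change 1.43 ± 0.09 SE, limma, adjusted p = 4.72e-05). KRT19 went from 4.93 and 5.08 RPKM to 20.8 and 20.9, the largest fold change of the list at 4.10 (log2 change 2.04 ± 0.14, limma, adjusted p = 5.35e-05). It remained far below the 129 to 180 RPKM of KRT18 in the same line. KRT8 went from 207 and 238 RPKM to 518 and 524, a fold change of 2.35 (log2 change 1.23 ± 0.10, limma, adjusted p = 0.00015). KRT8 was the most abundant of the 10 genes in LNCaP in both conditions.

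KRT18, the partner of KRT8, was at 129 and 145 RPKM in normoxia and 158 and 180 in hypoxia. The fold change was 1.23 and under the limit of a call (limma, adjusted p = 0.0492). The ratio of KRT8 to KRT18 was accordingly 1.61 and 1.64 in normoxia and 3.27 and 2.92 in hypoxia. FOXA1 stood at 200.3 and 199 RPKM in normoxia and 207 and 216 in hypoxia, and the 95% interval of its log2 change was -0.11 to 0.28. For HOXB13, at 37.2 and 43.1 against 42.5 and 42.3 RPKM, the interval was -0.16 to 0.33. Within the lineage factors, a change of over 2-fold was thus seen for GATA2 and lay outside the intervals of FOXA1 and HOXB13. KRT7, at 0.387 and 0.208 against 0.448 and 0.42 RPKM, was not called.

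**Figure D3:**
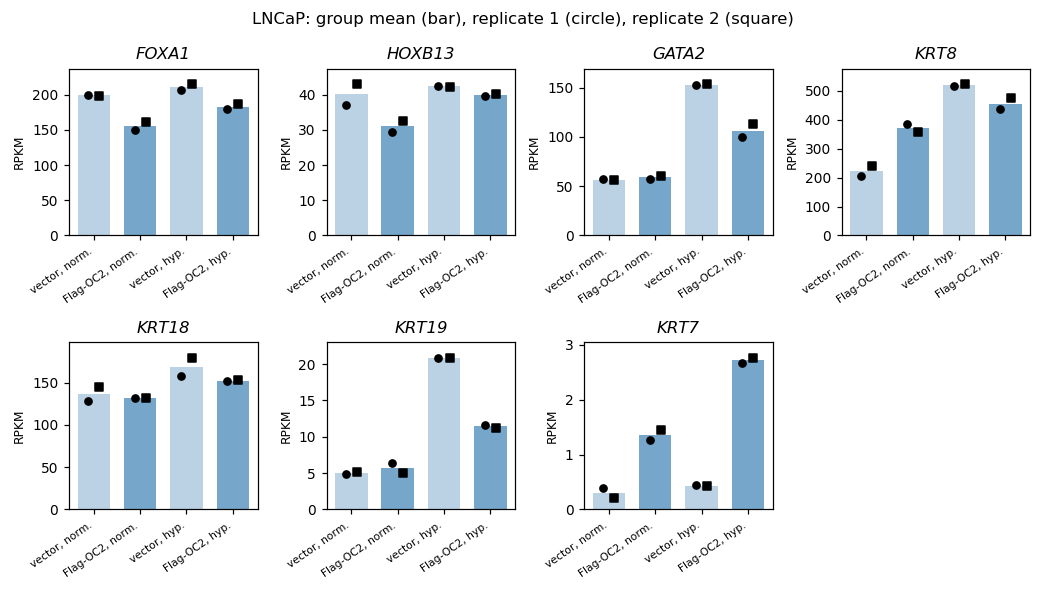
RPKM of the 7 genes tested in LNCaP, by group (bars are means, circles replicate 1, squares replicate 2, axes start at 0). GATA2, KRT8 and KRT19 are highest with empty vector in hypoxia, where GATA2 reaches 154 RPKM, and KRT7 is above 1 RPKM only with Flag-OC2.

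None of the 6 genes whose test did not depend on the Flag-OC2 libraries was called with Flag-OC2 in LNCaP cells in normoxia. KRT7, which entered the test through these libraries, is given as a description. It was at 1.27 and 1.45 RPKM with Flag-OC2 against 0.387 and 0.208 with empty vector, a log2 difference of 1.91 that became 0.87 with a pseudocount of 1. Of the 12283 genes, 2.81% were called higher and 0.48% lower. The median log2 change was 0.05 for the genes tested, KRT7 included, and -0.08 over all genes.

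KRT8 was at 386 and 356 RPKM with Flag-OC2 in normoxia against 207 and 238 with empty vector. The fold change of 1.67 was under the limit of a call (log2 change 0.74 ± 0.10, limma, adjusted p = 0.00745). FOXA1 was at 149.9 and 161 RPKM against 200.3 and 199, and HOXB13 at 29.4 and 32.6 against 37.2 and 43.1. These were lower by 1.28-fold (limma, adjusted p = 0.0504) and 1.29-fold (limma, adjusted p = 0.0854), under the limit of a call. The median log2 change over all genes was -0.08, and the share of all genes lower in both Flag-OC2 libraries was not counted in normoxia. GATA2, KRT18 and KRT19 overlapped between the groups.

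In hypoxia, again none of these 6 genes was called, beside 3.7% of all genes called higher and 0.773% called lower. KRT7 was at 2.67 and 2.77 RPKM with Flag-OC2 against 0.448 and 0.42 with empty vector, which is again a description, and was the least abundant of the 7 genes tested. The other 6 genes were each lower in both Flag-OC2 libraries than in both empty vector libraries, all by under 2-fold, and 34.8% of all genes tested were lower in both in the same way. The median log2 change of the 7 genes, KRT7 included, was -0.19, beside -0.01 over all genes.

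Of these 6, KRT19 and GATA2 differed most, 2 of the 3 genes that hypoxia had raised. KRT19 was at 11.7 and 11.2 RPKM with Flag-OC2 in hypoxia against 20.8 and 20.9 with empty vector (log2 change -0.86 ± 0.14, limma, adjusted p = 0.00801). GATA2 was at 100.1 and 113 RPKM against 152 and 154 (log2 change -0.53 ± 0.09, limma, adjusted p = 0.0123). KRT8 was at 436 and 476 RPKM against 518 and 524, with a 95% interval of the log2 change from -0.43 to 0.04. FOXA1 (180.2 and 187 against 207 and 216 RPKM), HOXB13 (39.7 and 40.2 against 42.5 and 42.3) and KRT18 (152 and 153 against 158 and 180) were lower by 1.15-fold, 1.06-fold and 1.11-fold.

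In the cells with Flag-OC2, hypoxia against normoxia gave no call among the 7 genes, beside 5.48% of all genes called higher and 1.36% called lower, though 4 of the 7, and 26.9% of all genes, had an adjusted p under 0.05 in limma. KRT19 was at 11.7 and 11.2 RPKM in hypoxia against 6.43 and 4.996 in normoxia, with a fold change of 2.00 just under the limit (limma, adjusted p = 0.00201). GATA2 was at 100.1 and 113 RPKM against 57.4 and 60.2, 1.80-fold (limma, adjusted p = 0.00081). KRT7, at 2.67 and 2.77 against 1.27 and 1.45 RPKM, was 1.93-fold higher (limma, adjusted p = 0.0385), and HOXB13, at 39.7 and 40.2 against 29.4 and 32.6, was 1.29-fold higher (limma, adjusted p = 0.0372). KRT8, called with empty vector, was at 436 and 476 RPKM against 386 and 356, a fold change of 1.23 (limma, adjusted p = 0.0655).

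The interaction term asks whether the response to hypoxia differed between Flag-OC2 and empty vector cells. KRT19 was the 1 gene called, with a response that was lower with Flag-OC2 (log2 difference -1.04 ± 0.20, limma, adjusted p = 0.0833), beside 1.35% of all genes called lower and 2.34% called higher. Without Flag-OC2 normoxia replicate 1 the log2 difference of KRT19 was -0.86 and not called. KRT8 had a log2 difference of -0.93 ± 0.15 (limma, adjusted p = 0.056) and GATA2 of -0.58 ± 0.13 (limma, adjusted p = 0.109), both under the limit of a call. No interaction of the list passed an adjusted p of 0.05. The ratio of KRT8 to KRT18 was 1.61 and 1.64 with empty vector in normoxia and 2.69 to 3.27 in the other 6 libraries.

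In PC3 cells, siRNA against ONECUT2 went with lower levels of FOXA1 at both oxygen levels and of KRT19, KRT7 and CD44 in hypoxia. In normoxia 1 of the 8 genes tested was called lower and none higher, beside 1.59% of all 12214 genes called lower and 3.62% called higher. In hypoxia 4 of the 8 were called lower and none higher, beside 3.95% and 3.55% of all genes. These shares in hypoxia stand for 916 genes, which became 563 to 2393 without each library in turn, 563 without siCtrl hypoxia replicate 2, 1530 without siRNA1 in hypoxia and 2393 without siRNA2 in hypoxia, and 440 without the 3 shallow libraries. In normoxia the 636 genes became 369 without siCtrl normoxia replicate 1 and 365 without the shallow libraries. The median log2 change of the list was -0.54 in normoxia and -0.80 in hypoxia, beside 0.13 and -0.03 over all genes. Scaling to the 75% quantile moved the median of all genes in normoxia to 0.03 and the share of calls that were higher from 69.5% to 56.6%, and KRT19 (log2 change -1.09) was then called too. No gene of the list had an adjusted p under 0.05 in limma in PC3, where 1 gene in normoxia and 11 in hypoxia had one.

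FOXA1 fell from 23.8 and 28.7 RPKM with siCtrl to 10.9 with siRNA1 and 12.7 with siRNA2 in normoxia, 2.20-fold (log2 change -1.14 ± 0.35, limma, adjusted p = 0.347). In hypoxia it fell from 19.8 and 17.5 RPKM to 6.16 and 12.1, 2.14-fold (log2 change -1.10 ± 0.35, limma, adjusted p = 0.255). All 4 siOC2 libraries lay below all 4 siCtrl libraries, and the share of all genes that did so was not counted. The call in normoxia was lost without siCtrl normoxia replicate 2 (log2 change -1.01) or without siRNA1 (-1.03), and that in hypoxia without siCtrl replicate 1 (-1.01) or without siRNA1 (-0.62). The 6.16 RPKM come from a library of low depth, and without the 3 shallow libraries the log2 change in hypoxia was -0.71 and not called.

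KRT19 was at 125 and 135 RPKM with siCtrl and 73.8 and 57.6 with siOC2 in normoxia, a fold change of 1.99 just under the limit (log2 change -0.99 ± 0.26, limma, adjusted p = 0.275). In hypoxia it fell from 187 and 177 RPKM to 48.3 and 67.6, 3.18-fold (log2 change -1.67 ± 0.26, limma, adjusted p = 0.0574). Both siRNAs gave values under all siCtrl values, a pattern whose share over all genes was not counted. The call in hypoxia held without the shallow libraries (log2 change -1.46) and without each library in turn.

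KRT7 differed between the siRNAs in normoxia, at 265 RPKM with siRNA1 and 109 with siRNA2, against 227 and 251.2 with siCtrl. Without siRNA1 the log2 change in normoxia was -1.13 and called, and without siRNA2 it was 0.15. In hypoxia both were low, at 107 and 119 RPKM against 302 and 272, and KRT7 fell 2.54-fold (log2 change -1.34 ± 0.38, limma, adjusted p = 0.208). That call was kept without each library in turn and lost without the 3 shallow libraries together (log2 change -1.34, with fewer libraries in the fit). CD44 was at 422 and 555 RPKM with siCtrl and 260 and 328 with siOC2 in normoxia, which was not called. In hypoxia it fell from 661 and 526 RPKM to 171 and 488, 2.04-fold (log2 change -1.03 ± 0.44, limma, adjusted p = 0.409). The CD44 call was lost in 7 of the 8 fits that left out 1 library, with log2 changes of -1.78 to -0.27. Without the siRNA1 library, one of the 3 of low depth, the log2 change was -0.27.

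KRT8 was at 51.5 and 41.9 RPKM with siOC2 against 70.0 and 69.5 with siCtrl in normoxia, and at 52.0 and 43.9 against 75.0 and 66.9 in hypoxia. These were lower by 1.5-fold and 1.48-fold, under the limit of a call (limma, adjusted p = 0.517 and 0.405). KRT18 was at 17.8 and 19.8 RPKM against 18.2 and 17.7 in normoxia and at 16.01 and 16.9 against 15.9 and 14.2 in hypoxia, with 95% intervals of the log2 change of -0.50 to 0.63 and -0.43 to 0.69. The ratio of KRT8 to KRT18 was 3.85 to 4.72 with siCtrl and 2.12 to 3.25 with siOC2, and KRT18 took 7.40% to 12.7% of the type I sum with siCtrl and 19.5% to 25.5% with siOC2.

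HOXB13 and GATA2 were low in PC3 and overlapped between siCtrl and siOC2. HOXB13 was at 1.98 and 2.67 RPKM with siOC2 against 2.71 and 2.66 in normoxia, and at 1.12 and 1.66 against 1.94 and 1.31 in hypoxia. GATA2 was at 1.99 and 3.004 RPKM against 2.91 and 3.12, and at 2.90 and 2.21 against 3.14 and 2.19. The 95% intervals of the log2 changes reached down to -1.14 for HOXB13 at both oxygen levels and -1.15 for GATA2 in normoxia. A 2-fold fall thus lay within these intervals. For GATA2 in hypoxia the interval was -0.91 to 0.81, and a 2-fold fall lay outside it. Of the genes not tested, KRT5 was at 0 to 0.426 RPKM and TP63 at 0 to 0.134 in PC3, and the 3 TP63 values above 0 were in siOC2 libraries (0.0459, 0.0726 and 0.134).

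**Figure D4:**
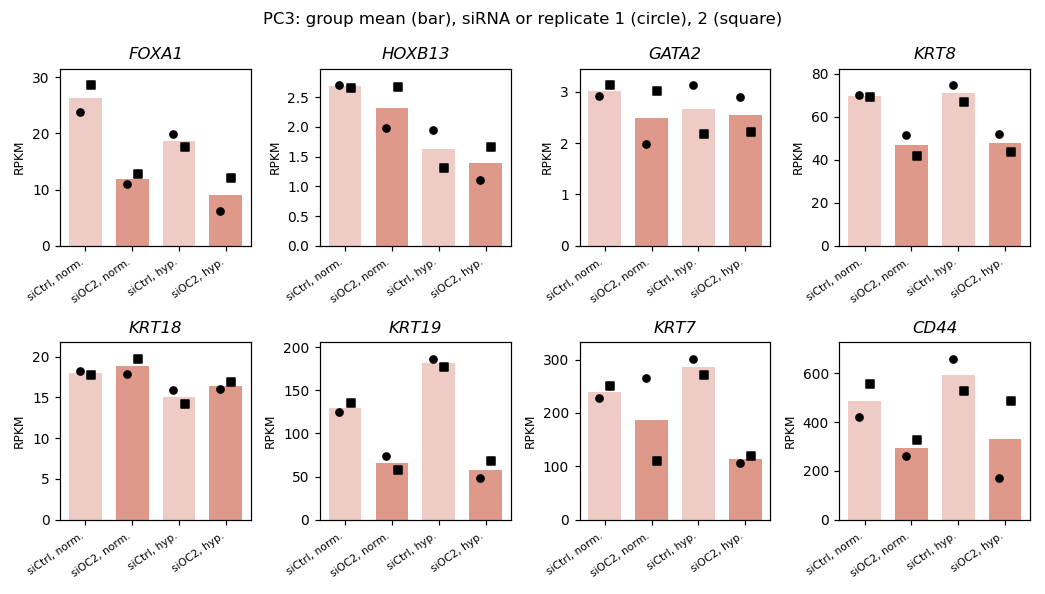
RPKM of the 8 genes tested in PC3, by group (bars are means, circles siRNA or replicate 1, squares siRNA or replicate 2, axes start at 0). FOXA1, KRT8, KRT19 and CD44 are lower in the siOC2 libraries of each oxygen level, and KRT7 stands at 265 RPKM with siRNA1 and 109 with siRNA2 in normoxia.

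Hypoxia gave no call among the 8 genes in PC3 with siCtrl, beside 2.23% of all genes called higher and 1.63% called lower, and none with siOC2, beside 1.11% and 2.35%. With siOC2, scaling moved the median of all genes from -0.22 to -0.09 and the share of calls that were higher from 32.0% to 45.7%. In limma no gene of the list had an unadjusted P under 0.05 in either contrast. With siCtrl, KRT19 was at 187 and 177 RPKM in hypoxia against 125 and 135 in normoxia, 1.40-fold (limma, adjusted p = 0.769), while with siOC2 it was at 48.3 and 67.6 against 73.8 and 57.6. GATA2 and KRT8, called in LNCaP, had log2 changes of -0.20 and 0.02 in PC3, with 95% intervals of -1.05 to 0.66 and -0.53 to 0.58. The interval of KRT8 did not reach the log2 change of 1.23 measured in LNCaP, in another table. HOXB13 was at 1.94 and 1.31 RPKM in hypoxia against 2.71 and 2.66, and FOXA1 at 19.8 and 17.5 against 23.8 and 28.7. These were lower by 1.64-fold and 1.40-fold without being called (limma, adjusted p = 0.787 and 0.842).

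No interaction of siOC2 and hypoxia was called in the list in PC3, beside 0.246% of all genes called higher and 0.696% called lower, and no gene had an adjusted p under 0.05 in limma, with 126 genes at an unadjusted P under 0.05. Scaling moved the median of all genes from -0.17 to -0.01 and the share of calls that were higher from 26.1% to 50%. The log2 differences were -0.68 for KRT19, with a 95% interval of -1.52 to 0.16, and -0.85 for KRT7, with an interval of -2.08 to 0.37. For FOXA1 it was 0.04, with an interval of -1.10 to 1.18.

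**Figure D5:**
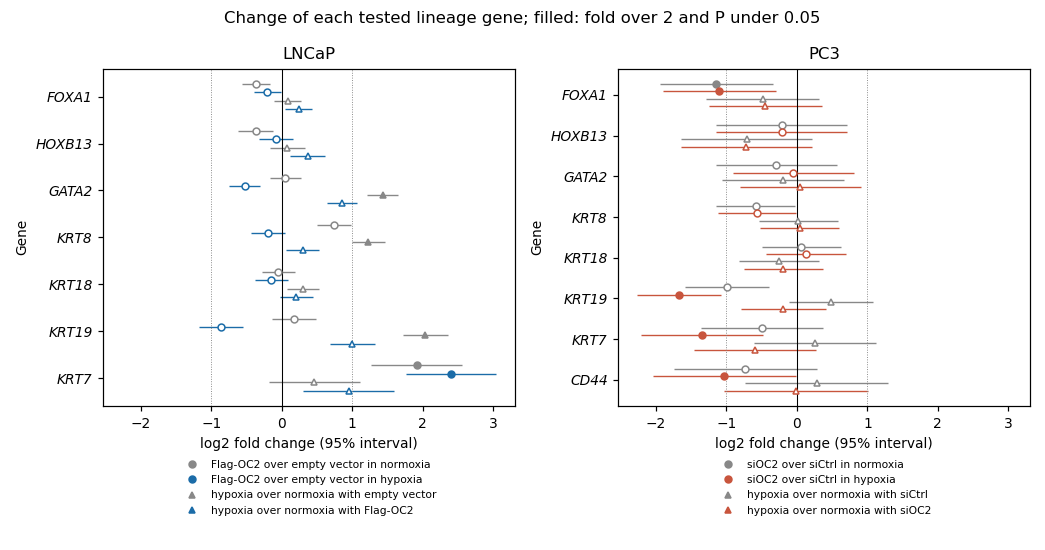
Log2 fold change with its 95% interval (limma) for each gene tested in LNCaP (left) and PC3 (right) in 4 contrasts, circles for ONECUT2 contrasts and triangles for hypoxia contrasts. Filled symbols are calls (fold over 2 and P under 0.05, dotted lines at 2-fold). In LNCaP the calls are to the right of 0, and in PC3 to the left. The filled KRT7 symbols in LNCaP are a description, since KRT7 passed the minimum through Flag-OC2 libraries alone.

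Of 21 further luminal genes, 17 were higher in every LNCaP library than in any PC3 library and none were higher in PC3. After scaling to the 75% quantile the counts were 15 and none. TMPRSS2, a serine protease of the prostate epithelium, was at 103.3 to 181 RPKM in LNCaP and 0.275 to 5.59 in PC3. Of 28 further basal genes, 10 were higher in PC3 and 3 in LNCaP, and the other 15 overlapped, and after scaling 13 were higher in PC3 and 2 in LNCaP. The shares over all genes are those given above for the 10 genes. The higher ones in PC3 included LAMB3, a laminin chain of the basement membrane, at 31.6 to 69.7 RPKM against 0.368 to 0.829, and CAV1, the caveolae protein, at 15.9 to 107 against 0.0089 to 0.12. KRT14, the usual partner of KRT5, was under 0.1 RPKM in PC3, and KRT15 was at 2.03 to 15.2.

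In LNCaP with empty vector, hypoxia raised 3 of 21 luminal genes tested (KLK2, MUC1 and PSCA) and lowered 1 (ACPP). Over all genes 5.6% were called higher and 2.34% lower. The median log2 change of the luminal genes was 0.32, beside 0.02 over all genes. Of 18 basal genes tested hypoxia raised 6 and lowered 2, with a median of 0.77. Of the 6, COL17A1 and KRT16 entered the test through hypoxia libraries alone, and the count and the median include both. COL17A1 had a mean of 0.483 RPKM with empty vector in normoxia. The 6 included EGFR, the growth factor receptor, at 66.9 and 57.6 RPKM against 10.04 and 8.69, and KRT14 and KRT16, which stayed under 3.2 RPKM. With Flag-OC2 in hypoxia, KRT14 was lower than with empty vector (log2 change -1.06, limma, adjusted p = 0.0135). KRT16 was at 0.372 and 1.18 RPKM with Flag-OC2 in hypoxia against 3.10 and 3.11 with empty vector. It met the minimum of 1 RPKM through the empty vector hypoxia libraries, where it was high, so its difference is given as a description. Of the basal genes, NGFR, the low-affinity nerve growth factor receptor, was at 3.60 to 4.74 RPKM in the 4 Flag-OC2 libraries and under 0.04 with empty vector, and CDH3, P-cadherin, at 0.671 to 2.47 and under 0.1. Both reached the minimum of 1 RPKM only in Flag-OC2 libraries, so that they had to differ.

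In PC3, ITGB4, the integrin subunit of hemidesmosomes, rose with hypoxia under siCtrl and fell with siOC2 in hypoxia. It was at 16.5 and 22.9 RPKM with siCtrl in normoxia, 142 and 145 with siCtrl in hypoxia and 11.6 and 40.9 with siOC2 in hypoxia (log2 change for siOC2 in hypoxia -2.72 ± 0.52, limma, adjusted p = 0.0933). S100A2, a calcium-binding protein of basal keratinocytes, fell with siOC2 in normoxia and in hypoxia, the latter from 96.8 and 70.2 RPKM to 20.0 and 23.6 (log2 change -1.92 ± 0.27, limma, adjusted p = 0.0502). Of the 21 basal genes tested, siOC2 lowered 3 and raised 1 in hypoxia, beside 3.95% and 3.55% of all genes. In normoxia it lowered 1 and raised 3, beside 1.59% and 3.62%. Of the 15 luminal genes, siOC2 lowered 2 in hypoxia (DPP4 and ELF3) and raised 1 in normoxia (ESRP1), beside the same shares of all genes. The median log2 changes of the basal genes were -0.32 in hypoxia and 0.03 in normoxia, and those of the luminal genes 0.04 and -0.08.

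Beside the keratins of the list, PC3 held the hair-type keratin KRT81 at 482 and 533 RPKM (siCtrl, normoxia), against under 0.05 in LNCaP. Like KRT7 it differed between the siRNAs, at 466 RPKM with siRNA1 and 85.5 with siRNA2 in normoxia and at 200 and 58.9 in hypoxia, against 412 and 390 with siCtrl in hypoxia. KRT86 and KRT83, close relatives of KRT81 that can share reads with it, were likewise lowest in the 2 siRNA2 libraries, over ranges of 5.20 to 41.7 and 0.662 to 6.09 RPKM. KRT80, another type II keratin, was at 20.1 to 38.8 RPKM in PC3 and 0.31 to 1.07 in LNCaP. Of 7 further keratins tested in PC3, siOC2 lowered 1 in hypoxia (KRT81, log2 change -1.88, limma, adjusted p = 0.369) and raised 1 in normoxia (KRT6A). The shares over all genes are those given above for siOC2.

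The paralogs of the lineage factors had another pattern. GATA3 was at 3.01 to 7.97 RPKM in PC3 and at most 1.45 in LNCaP, and FOXA2, a relative of FOXA1 found in neuroendocrine cells, at 2.69 to 9.57 in PC3 and under 0.02 in LNCaP. Of 8 paralogs tested in PC3 and 4 in LNCaP, none were called with siOC2 or Flag-OC2 against their controls. Of the 3 neuroendocrine markers tested in LNCaP, hypoxia raised ENO2 with empty vector and with Flag-OC2, over a range of 5.16 to 80.5 RPKM. Over all genes 5.6% and 5.48% were called higher in these contrasts. Hypoxia raised ENO2 in PC3 too, with log2 changes of 2.33 under siCtrl and 1.63 under siOC2 (limma, adjusted p = 0.0285 and 0.405). Over all genes 2.23% and 1.11% were called higher there. NCAM1 reached 1 RPKM only with Flag-OC2 in hypoxia (1.56 and 1.01 RPKM), through which it entered the test, and was at 0.179 to 0.541 RPKM in the other 6 libraries. The summed level of 14 stromal, endothelial and immune markers was 43.1 to 59.0 RPKM over the LNCaP libraries and 37.9 to 65.6 over the PC3 libraries. CD68 was the highest of them in 7 of the 8 LNCaP libraries, at 21.1 to 36.5 RPKM, and COL1A1 was higher with Flag-OC2 in hypoxia in replicate 2, at 25.9 against 22.4 RPKM.

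For each gene, the genes with the most similar pattern over the 8 libraries of a line were listed by Pearson's r of log2(RPKM + 0.1), as a description only, since the libraries of a group share their treatment. In LNCaP the closest to GATA2 were DDX3Y and TXNDC16 (r = 0.997 for both), to KRT8 TGFB1 (r = 0.993) and SEC14L1 (r = 0.986), to KRT19 C6orf106 and NOX5 (r = 0.993 and 0.992), and to KRT7 COL27A1 and DOK4 (r = 0.991 and 0.988). FOXA1 was closest to WDR59 and TRAK1 (r = 0.991 and 0.977), HOXB13 to MAST2 and ALDH18A1 (r = 0.994 and 0.991) and KRT18 to GET4 and CHST10 (r = 0.975 and 0.972). In PC3 the closest to FOXA1 were HIST1H2BJ and XRCC2 (r = 0.987 for both), to KRT8 CAPN2 and TRIM31 (r = 0.996 and 0.992), to KRT19 SLC39A11 and TRIOBP (r = 0.996 and 0.989), to KRT7 HIST2H2BF and CETN3 (r = 0.981 and 0.979) and to CD44 RBMS1 and RPS23 (r = 0.985 and 0.984). The genes closest to KRT18 there were NDUFS6 and ZNF319 (r = 0.987 and 0.977), to HOXB13 VPS4A and GAMT (r = 0.978 and 0.970) and to GATA2 TNRC18 and IL31RA (r = 0.914 and 0.878). No gene of the list was among these closest genes in either line.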

How the data were processed

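RNA was isolated with RNeasy, libraries were made with the TruSeq Stranded mRNA kit and sequenced on a HiSeq2500, and the authors trimmed the reads, mapped them with STAR 2.4.2a (build hg19) and derived the deposited RPKM values through Cufflinks 2.1.1 and a GENCODE annotation. Whether counting used the strand is not given in the sources used here. Read counts were not used, so precision comes from the spread between libraries, and the relative depth from the steps between low RPKM. Of the 28 samples, 12 are ChIP-Seq and not analysed here.

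Groups came from the labels. For each line, genes that reached 1 RPKM in 2 or more libraries entered a limma model (limma 3.58.1, R 4.3.3) of log2(RPKM + 0.1) on the 4 groups, without a block and with a trend of the variance on the mean. Tests were 2-sided. A fold change on this scale understates the change of low genes. The fit was tested on simulated data. Genes with a missing value, such as ONECUT2 in LNCaP, were left out of the fit. Named were the 10 genes, genes of the lists (luminal, basal, keratin, paralog, neuroendocrine, stromal) that were called or of high level, and the 2 closest genes of each member. CD24, PECAM1 and a few further list genes are not reported here. The members and lists were chosen with earlier results of these data known. Gene positions are from GENCODE v44lift37. Alternatives were a pseudocount of 1, no minimum or 5 RPKM, calls by adjusted p, scaling to the 75% quantile, a fit to the compared groups, a replicate block, depth as a covariate and leaving out each library.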

Additional observations from a re-analysis of the deposited data

Results flagged for a closer look

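KRT19 in LNCaP was listed because its response to hypoxia differed between Flag-OC2 and empty vector cells by the interaction term (log2 difference -1.04, limma, adjusted p = 0.0833 over all genes), with log2 changes of 1.00 and 2.04.

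FOXA1 and KRT18 were listed because both hypoxia libraries of one line lay on the opposite side of normoxia from those of the other line. FOXA1 had a log2 change of -0.49 in PC3 with siCtrl and 0.082 in LNCaP with empty vector. KRT18 had a log2 change of -0.26 in PC3 and 0.30 in LNCaP. None of these 4 changes was called, and the difference between the lines was not tested, since the tables were normalised separately. With 2 libraries a group, no test for outlying libraries was made.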

How the results depend on the processing

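The calls of GATA2, KRT8 and KRT19 with hypoxia in LNCaP were made under all alternatives run and without each library in turn, and the counts of calls for hypoxia in PC3 with siCtrl stayed at 0. With siOC2 in PC3 in normoxia 1 of the 10 genes was called, against 2 with scaling to the 75% quantile, 0 with an adjusted p for calls, 3 with relative depth as a covariate, 2 without the 3 shallow libraries, and 0 to 2 without each library. In hypoxia 4 were called, against 0 with an adjusted p, 1 without the shallow libraries, and 2 to 4 without each library. In PC3, hypoxia with siOC2 and the interaction each gave 0, and 0 to 1 without each library. In LNCaP, Flag-OC2 in normoxia gave 1 call, and 0 with a pseudocount of 1 or a minimum of 5 RPKM. In hypoxia it gave 1, and 0 with 5 RPKM. Both are KRT7, which passed the minimum of 1 RPKM through its Flag-OC2 libraries alone and had to differ, so these counts are a description. Hypoxia with Flag-OC2 gave 0, against 1 with the depth covariate and 0 to 1 without each library. The LNCaP interaction gave 1, against 0 with a pseudocount of 1, an adjusted p or the depth covariate, and 0 to 2 without each library. Of 75 effects of the genes tested, 21 turned sign when 1 library was left out, 18 in PC3 and 3 in LNCaP, none of them called in the fit with all libraries. They include KRT7 with siOC2 in normoxia (log2 change -1.13 to 0.15), KRT7 with hypoxia under siOC2 (-1.23 to 0.047), CD44 with hypoxia under siOC2 (-0.77 to 0.74), and the CD44 interaction in PC3 (-1.05 to 0.46, 0.11 with the depth covariate, 0.49 without the shallow libraries). Leaving out the shallow libraries and crossing the block were chosen after seeing the data. The cause was not tested. A lone library left in a group is assumed to vary like the other groups.

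Over all genes, an adjusted p in place of the unadjusted P left 1 of 636 calls with siOC2 in normoxia, 11 of 916 in hypoxia, 33 of 471 with hypoxia under siCtrl, 1 of 422 under siOC2 and 0 of 115 interactions in PC3, and 30 of 454 interactions in LNCaP. Without each library in turn, the calls ran from 307 to 2755 with hypoxia under siOC2 and from 47 to 1515 for the interaction in PC3. Scaling to the 75% quantile changed the ratios of LNCaP over PC3 to 4.14 for FOXA1, 8.11 for HOXB13, 10.2 for GATA2, 1.73 for KRT8 and 4.13 for KRT18, and those of PC3 over LNCaP to 47.7 for KRT19, 1479 for KRT7 and 2378 for CD44.

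The labels give no pairing by replicate number, except that siRNA1 and siRNA2 are named in both siOC2 groups. The main fit had no block and did not use this link between the siOC2 groups. The difference between replicate 1 and replicate 2 in one group was correlated over genes with that in the compared group. These correlations were -0.186 to 0.618, the highest being between the siOC2 groups, whose numbers name the siRNA. With the replicate block, the calls were 1 with siOC2 in normoxia, 4 in hypoxia, and 3 with hypoxia in LNCaP with empty vector, and no count of calls among the 10 genes differed. A crossed block in PC3 changed no count either.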

Other observations

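CDH1, the epithelial cadherin, was listed at 0 RPKM in LNCaP Flag-OC2 hypoxia replicate 2 and at 284 to 397 RPKM in the other 7 LNCaP libraries. A 0 beside such levels can be a failed estimate, and because of it CDH1 counted as overlapping between the lines, though its other 7 values were above all PC3 values. The other luminal gene EPCAM was at 144 RPKM in that library and 110 to 149 RPKM over all LNCaP libraries. In PC3, CDH1 was at 1.09 RPKM with siRNA1 and 6.87 with siRNA2 in normoxia, and at 0.741 and 5.97 in hypoxia, against 4.06 to 4.87 with siCtrl.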
